A study of Mus musculus with 11 samples.

Results

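Mouse embryonic stem cells of the E14 line were compared with the culture they had become after 3 days of directed differentiation. The comparison holds 4 of the 11 libraries of the series, namely the 2 libraries of day 0 and the 2 of day 3, and it was made over all genes of the count table. E14 is an established line of strain 129 and is wild type here. It was grown as a monolayer and was driven toward ventral hindbrain nerve cells with RA (retinoic acid) and SAG, an agonist of Smoothened, over days 0 to 3. The treatment text is the same for every library, day 0 included, so day 0 is taken from the cell status and the title, which call it stem cells. Both days are whole, unsorted cultures, so a day 3 value is a mean over all cell types in the dish, and fewer cells of a type cannot be told apart from less RNA per cell. A further 4 libraries, 2 each of days 1 and 2, share the estimate of spread, and 3 libraries of day 3.5, sorted for Prominin-1, are cited by level only. One label of the sorted libraries says day 3.5 and another says 3 days. The labels do not tell if the replicates of a day were grown apart, so the p-values measure only the spread between these libraries, which may be technical.

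Retinoic acid enters the nucleus and binds RAR/RXR receptors, which sit on direct-repeat elements and switch on Hox genes and the enzymes that break retinoic acid down. It gives neural tissue a hindbrain and anterior spinal identity. Hedgehog signal relieves Smoothened of inhibition by the receptor Ptch1 and lets Gli proteins activate the floor plate and ventral progenitor genes. Ventral hindbrain progenitors give rise to visceral motor neurons and later to serotonergic neurons.

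Total counts were 30384599 and 26136331 in the day 0 libraries and 30115258 and 30264387 in the day 3 libraries. Levels below are CPM (counts scaled to the library total) after TMM scaling and are given as replicate 1 and then replicate 2. CPM is not divided by gene length, so it compares a gene between libraries and not genes with each other. Log2 fold changes are day 3 over day 0 with their SE, from edgeR's quasi-likelihood test over 16810 genes with Benjamini-Hochberg adjusted p-values, and a gene is called at an adjusted p of at most 0.05. On this scale 1 is a doubling.

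Net of the whole course, 4641 genes were higher on day 3 (27.6% of those tested) and 4422 were lower (26.3%), so 53.91% of the tested genes were called. Without adjustment 10024 genes had p of at most 0.05. The median log2 fold change was 1.81 among the genes called higher and -1.28 among those called lower, and it was 0.02 over all genes tested. The libraries of the days did not overlap for all 4641 genes called higher and for 4421 of the 4422 called lower. With 2 libraries a day a called gene can hardly overlap, so these counts add no support to the calls. Tested against a minimum absolute log2 fold change of 1, 2425 genes (14.4%) stayed above and 1673 (9.95%) below. Genes with 0 counts in both libraries of a day (135 on day 0, 138 on day 3) were set to their bound against 3 counts per library when sizes were counted. With these at their bound, 1032 called genes had a log2 fold change of at least 3 and 831 of at most -3, while 286 reached 5 and 240 reached -5. The plot of log2 fold change against level places these changes by the level of each gene.

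**Figure D1:**
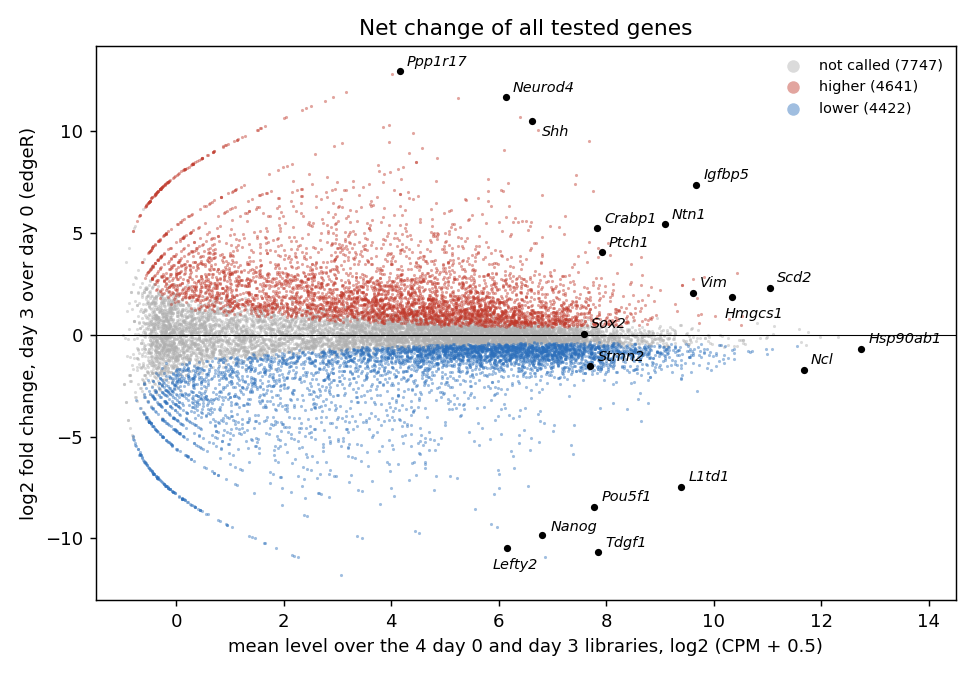
Log2 fold change (day 3 over day 0, y axis) of the 16810 tested genes against the mean level of the 4 libraries (log2 of CPM + 0.5, x axis), 1 point per gene; red points are the 4641 genes called higher, blue the 4422 called lower, grey the 7747 not called, and black marks single genes by name. The curved lines of points at the left are genes with 0 or a few counts on 1 of the days, whose fitted value depends on the prior count; Sox2 lies on the zero line, Pou5f1 and Tdgf1 near the lower edge and Neurod4 and Shh near the upper.

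Most of the net change had been made before the last day. Among the 2425 genes past the minimum on the higher side, the median gene had covered 33.02% of its net log2 change by day 1 and 72.94% by day 2, and 1899 of them (78.31%) were past the midpoint by day 2. Among the 1673 on the lower side these shares were 33.82% and 80.89%, with 1509 (90.2%) past the midpoint by day 2. A net comparison also hides genes that rose and came back, and several of these are described below.

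The libraries of 1 day were not alike for every group of genes. The SD of the log2 difference between replicates was 0.677 on day 0 and 0.541 on day 3 over all genes tested. On day 3 all 11 tested floor plate genes were higher in replicate 1, with a median log2 ratio of 0.99, whereas 11 of 14 ventral progenitor factors, 23 of 24 DNA replication genes and all 21 mitosis genes were higher in replicate 2. On day 0, 14 of 15 naive pluripotency genes were higher in replicate 2 (median log2 ratio of replicate 1 over 2 of -0.70). Across the 15592 tested genes with a GC value, the log2 difference of replicate 1 from replicate 2 was correlated with GC content, with r of 0.5 on day 0 and 0.257 on day 3, a description over genes that share their libraries. Each library was left out in turn, and fits with a GC offset and with a replicate block were made. With the GC offset and with the block, 10 floor plate genes and 13 ventral progenitor factors were called higher and 15 naive pluripotency genes lower, the same numbers as without them. These lists have large changes, so their counts could hardly move, and they do not stand for the other lists. Over all lists and alternatives, 218 of 2280 list counts moved by a ratio above 1.5, or to or from none.

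**Figure D2:**
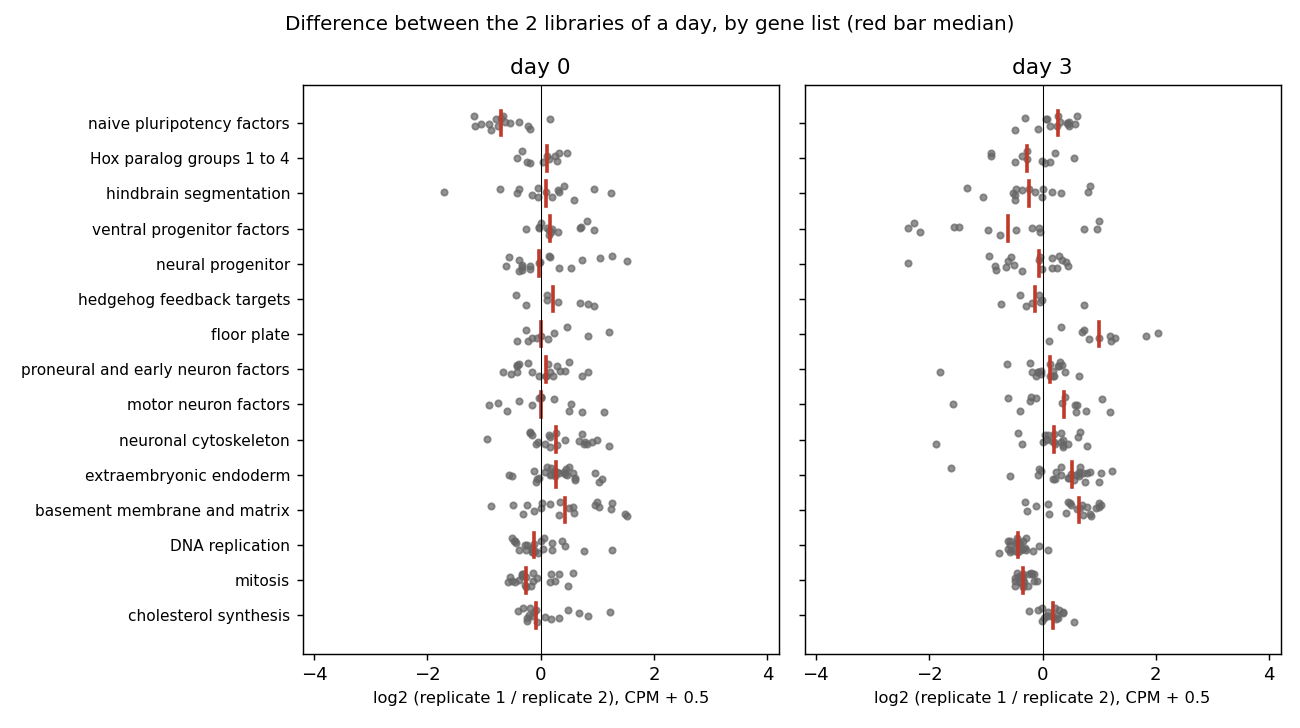
Log2 ratio of replicate 1 to replicate 2 (x axis, CPM + 0.5) on day 0 (left) and day 3 (right) for the tested members of 15 gene lists (y axis), with 1 point per gene and a red bar at the list's median; vertical scatter within a list only separates the points. On day 3 the floor plate list has its median at 0.99 and the ventral progenitor list at -0.61, and on day 0 the naive pluripotency list has its median at -0.70.

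Pluripotency genes were lower almost throughout. All 15 naive pluripotency factors, the transcription factors and partners that hold stem cells in their ground state, were lower on day 3, with a median log2 fold change of -6.59. Nanog stood at 180 and 262 CPM on day 0 and at 0.346 and 0.13 CPM on day 3 (log2 fold change -9.82 ± 0.42, edgeR adjusted p = 1.36e-06). Both day 3 libraries were far below both day 0 libraries. Esrrb, an orphan nuclear receptor of the same network, went from 142 and 226 to 1.19 and 0.91 CPM, and Zfp42 from 115 and 187 to 2.08 and 2.7 CPM. The smallest changes in this list were those of Klf4 (log2 fold change -1.80) and Tbx3 (-2.35), which still stood at 10.1 and 6.5 CPM and 9.59 and 6.31 CPM on day 3. Dppa3 ended at 1 and 0 counts from 7.27 and 6.42 CPM.

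Of 12 general pluripotency factors, 11 were lower (median -5.54). Pou5f1, the POU factor without which pluripotency ends, was at 537 and 332 CPM on day 0 and 1.54 and 0.91 CPM on day 3 (log2 fold change -8.46 ± 0.49, edgeR adjusted p = 3.79e-06). Dppa2, Dppa4, Gdf3 and Tdh, the threonine dehydrogenase that mouse stem cells depend on, fell with log2 fold changes of -7.51, -4.35, -7.06 and -9.31. Sall4 fell less, from 217 and 208 to 101 and 116 CPM. The member that was not called was Sox2, which serves both pluripotent cells and neural progenitors, at 152 and 223 CPM on day 0 and 192 and 197 CPM on day 3 (log2 fold change 0.06 ± 0.20, 95% interval -0.39 to 0.51). Its day 3 libraries lay between the day 0 ones, after a mean of 110 CPM on day 1.

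The Oct-Sox composite motif, on which Pou5f1 and Sox2 bind side by side, was found on either strand in 9 of 32851 RefSeq promoter windows of mouse GRCm38.p6 (0.0274%), each running from 250 bases before to 50 after a gene's start. Of the 680 list genes with a window, 3 held a match, namely Nanog, Hoxb1 and Nrarp. The Nanog stretch is shown because Nanog was among the deepest falls and the Hoxb1 stretch because Hoxb1 also ended lower. The Nrarp stretch is not printed. Since the printed genes were chosen by direction, they do not tell if the motif goes with a fall. The Nanog stretch is chr6:122707390-122707451, plus strand, and the Hoxb1 stretch is chr11:96365547-96365608, plus strand. The motif lies 62 to 75 bases upstream of the nearer of the annotated Nanog starts and 174 to 187 bases upstream of the Hoxb1 start. Both are written 5′ to 3′ on the gene's strand and end before the start site, with the motif in capitals (in Nanog it reads on the opposite strand). A match is a description of letters and not of binding.
Nanog: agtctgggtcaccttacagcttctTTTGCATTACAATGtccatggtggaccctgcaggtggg
Hoxb1: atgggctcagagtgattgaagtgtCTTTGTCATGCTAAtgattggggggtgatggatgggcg

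**Figure D3:**
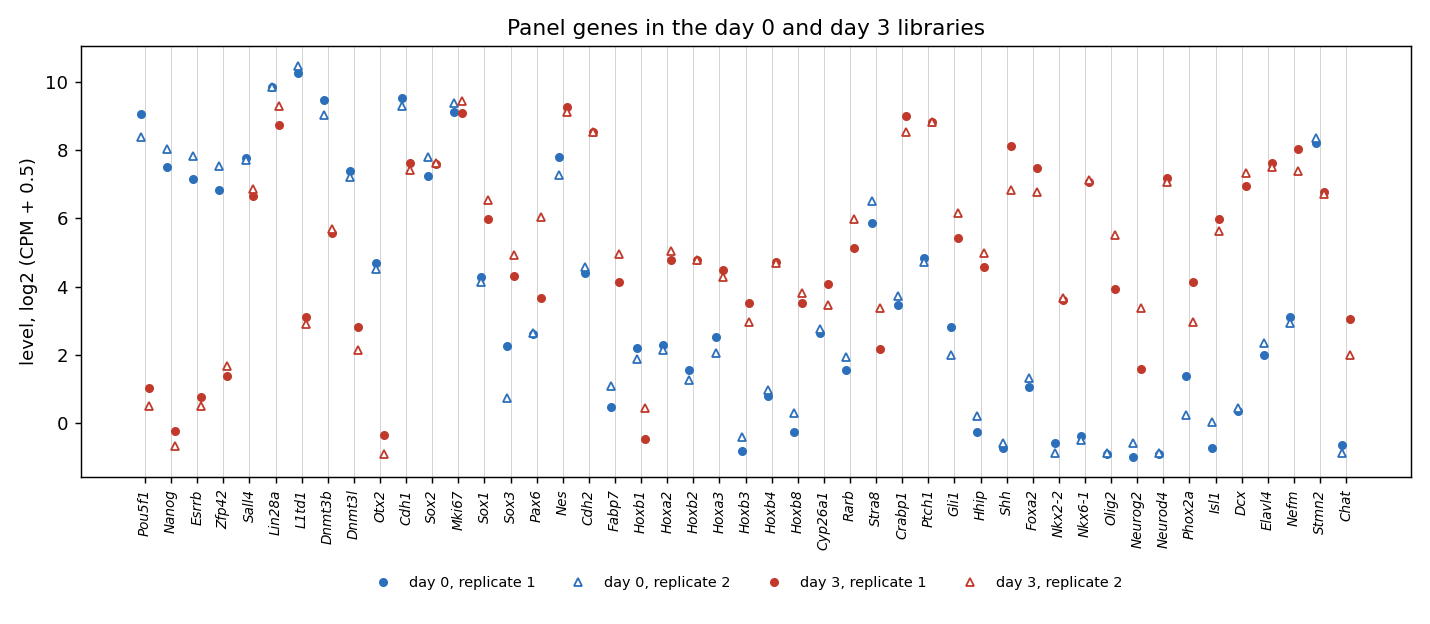
Levels (y axis, log2 of CPM + 0.5) of 47 panel genes (x axis) in the day 0 libraries (blue) and the day 3 libraries (red), with filled circles for replicate 1 and open triangles for replicate 2. Stem cell genes stand at the left with day 3 below day 0, Sox2 and Mki67 overlap between days, and Pax6, Neurog2 and Olig2 show the widest gaps between the day 3 libraries among the genes that rose.

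Of 7 RNA regulators of the stem cell state 4 were lower and 1 higher. The number higher was 0 without day 0 replicate 1 or day 3 replicate 2, and 2 without day 3 replicate 1 or either library of day 1. L1td1, an RNA-binding protein derived from a transposon, dropped from 1240 and 1436 to 8.11 and 7.02 CPM (log2 fold change -7.46 ± 0.23, edgeR adjusted p = 9.9e-07). Lin28a, which blocks let-7 maturation, fell by 0.81 ± 0.20 on the log2 scale and was still at 425 and 628 CPM. Its paralog Lin28b stood at 152 and 145 CPM on day 0 and 176 and 226 CPM on day 3 and was not called (log2 fold change 0.44 ± 0.18). Trim71, a let-7 target, fell from 390 and 455 to 163 and 223 CPM.

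Genes listed for the formative epiblast were mostly lower too, 8 of 11 against 2 higher (median -3.05). Otx2, which the anterior epiblast and later the forebrain need, went from 25.3 and 22.3 to 0.283 and 0.0325 CPM. Pou3f1 fell from 24 and 13.7 to 0.88 and 0.78 CPM, Fgf5 from 6.15 and 4.28 to 0.472 and 0.78 CPM and Lef1 from 29.6 and 17.6 to 1.13 and 1.85 CPM. The exceptions were Sox4 and Sall2, both also expressed in neural tissue, which rose from 64.9 and 69.4 to 352 and 379 CPM and from 73.2 and 42.6 to 193 and 226 CPM. Fgf15 was not called, with 10.9 and 11.5 CPM on day 0 and 4.37 and 16.1 on day 3, although its mean on day 2 was 44.6 CPM.

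In Nodal signaling, which keeps primed cells pluripotent and patterns the early embryo, the ligand, the co-receptor and the antagonists were lower. Tdgf1, the co-receptor, went from 418 and 500 to 0.377 and 0.163 CPM, and Lefty2, a secreted antagonist that Nodal itself induces, ended at 0.157 and 0.0325 CPM (log2 fold change -10.46 ± 0.51, edgeR adjusted p = 2.26e-06). Nodal, its antagonist Lefty1 and the transcription factor Foxh1 fell with log2 fold changes of -7.61, -8.57 and -5.44. The intracellular mediator Smad3 moved the other way, from 38.6 and 31.3 to 269 and 247 CPM, as did the receptor Acvr2b (log2 fold change 2.46). In all 8 of 14 members were lower and 5 higher, and the count of higher members was 3 without any single library of day 0 or day 3.

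Of the FGF/ERK targets, feedback regulators that report active ERK signaling, 10 of 13 were lower and 1 higher (median -1.49). Fgf4, the ligand made by stem cells, went from 108 and 141 to 0.283 and 0.065 CPM. Spry4 fell from 153 and 155 to 1.7 and 1.56 CPM (log2 fold change -6.55 ± 0.25, edgeR adjusted p = 1.36e-06), Etv4 from 139 and 115 to 1.41 and 0.813 CPM and Etv5 from 203 and 201 to 15 and 14.7 CPM. Dusp6, a phosphatase of ERK, fell from 199 and 180 to 80.6 and 53.7 CPM, and Dusp4 was not called (42.9 and 35 CPM on day 0, 31.7 and 29.2 on day 3). The only rise was that of Ccnd1, with 199 and 151 CPM on day 0 and 286 and 308 CPM on day 3, which lost its call without day 0 replicate 2 (edgeR adjusted p = 0.0618).

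BMP signaling genes moved upward in 9 of 15 cases and none was lower (median 1.03), although 1 was called lower without either library of day 1. Id3, a BMP target that holds back differentiation factors, rose from 6.66 and 4.37 to 87.4 and 80.2 CPM, and the ligand Bmp7 from 4.15 and 1.8 to 76.9 and 49.4 CPM. Noggin (Nog), a secreted BMP antagonist, rose as well, from 0.748 and 0.343 to 21.5 and 12.5 CPM. Id1 (16.9 and 15.5 CPM on day 0, 10.9 and 15.7 on day 3) and Bmp4 (25.4 and 24.5 CPM on day 0, 14.2 and 13.4 on day 3) were not called. Wnt ligands and targets were split, 7 higher and 5 lower of 16, beside 27.6% and 26.3% of all tested genes. Wnt3 and Wnt8a fell with log2 fold changes of -3.58 and -5.40, whereas Wnt7a and the secreted inhibitor Sfrp1 rose with log2 fold changes of 5.28 and 3.49.

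DNA methylation enzymes were lower in 7 of 10 cases. Dnmt3b, a de novo methyltransferase, fell from 716 and 527 to 47.3 and 51.5 CPM (log2 fold change -3.65 ± 0.19, edgeR adjusted p = 2.76e-06), its cofactor Dnmt3l from 169 and 149 to 6.48 and 3.93 CPM, and Dnmt3a from 389 and 292 to 149 and 119 CPM. The oxidising enzymes moved in opposite directions. Tet1 fell from 611 and 984 to 70.5 and 83.7 CPM while Tet3 rose from 26.2 and 19.6 to 167 and 140 CPM. Maintenance methyltransferase Dnmt1 was not called (514 and 473 CPM on day 0 and 379 and 481 CPM on day 3).

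All 12 tested genes of the 2-cell-like state, which a small fraction of stem cells enters, were lower (median -3.62). Zscan4d, from the gene family that marks this state, was at 14.7 and 17.8 CPM on day 0 and 0.755 and 2.6 CPM on day 3. The Zscan4 and Usp17l genes are near-identical copies, so the split of reads among them is uncertain. Of 18 germ cell and meiosis genes 15 were lower, with a median of -3.48 when the gene at 0 on day 3 is set to its bound. Hormad1, a meiotic chromosome axis protein, fell from 13.6 and 26.1 to 0.0314 and 0.163 CPM, and Dazl, a germ cell RNA-binding protein, from 27.6 and 67.1 to 0.283 and 2.5 CPM. Rec8, the meiotic cohesin subunit, was the exception and rose from 18.6 and 11.7 to 42.4 and 44.7 CPM (log2 fold change 1.53 ± 0.36, edgeR adjusted p = 0.006). Stra8, the retinoic acid target that starts meiosis, ended lower (58 and 90.6 CPM on day 0, 3.99 and 9.88 on day 3) after a mean of 1377 CPM on day 1.

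Retinoic acid response genes were higher in 11 of 17 cases and lower in 3 (median 1.61). The carriers Crabp1 and Crabp2, which bind retinoic acid in the cytoplasm, rose from 10.5 and 12.8 to 512 and 372 CPM and from 42 and 32.8 to 263 and 376 CPM. Rarb, a receptor that is itself a target, rose from 2.41 and 3.3 to 34.8 and 62.5 CPM (log2 fold change 4.10 ± 0.34, edgeR adjusted p = 2.08e-05), and Stra6, the retinol transporter, from 2.31 and 1.03 to 46.8 and 62.7 CPM. Rarg took the opposite direction, from 156 and 116 to 9.15 and 8.48 CPM, while Rara was not called (32.1 and 17.9 CPM on day 0, 52.3 and 40.2 on day 3). Cyp26a1, the enzyme that degrades retinoic acid, peaked before day 3. Its mean was 219 CPM on day 1, but on day 3 it stood at 16.4 and 10.5 CPM against 5.71 and 6.29 CPM on day 0 (log2 fold change 1.17 ± 0.27, edgeR adjusted p = 0.00601), and the call was lost without day 3 replicate 1 (adjusted p = 0.0573). Dhrs3, another early target, was not called after a day 1 mean of 64.3 CPM (7.14 and 4.58 CPM on day 0, 3.77 and 3.93 on day 3).

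The direct-repeat retinoic acid response element with a spacer of 5 bases was found on either strand in 0.0974% of the promoter windows, and among list genes only Cyp26a1 and Rarb held one. With a spacer of 2 bases it was in 0.268% of windows and in no list gene. Both stretches are shown because these genes responded on day 1 and ended above day 0. The Cyp26a1 stretch is chr19:37697752-37697807, plus strand, and the Rarb stretch is chr14:16575489-16575553, minus strand, both on GRCm38.p6 from RefSeq, 5′ to 3′ on the gene's strand and upstream of the start, with the element in capitals (in Cyp26a1 it reads on the opposite strand). The element lies 16 to 32 bases upstream of the Cyp26a1 start and 37 to 53 upstream of the Rarb start.
Cyp26a1: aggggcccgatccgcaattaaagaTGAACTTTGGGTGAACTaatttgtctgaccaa
Rarb: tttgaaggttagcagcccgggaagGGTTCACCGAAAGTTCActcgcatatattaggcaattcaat

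Hox genes set position along the body axis in the order of their paralog groups. Of the 11 tested genes of paralog groups 1 to 4, 8 were higher (median 2.84). Hoxd3 rose from 0.068 and 0.171 to 35.1 and 32.1 CPM (log2 fold change 8.15 ± 0.37, edgeR adjusted p = 1.71e-06), Hoxb4 from 1.22 and 1.46 to 26.1 and 25.4 CPM, Hoxb2 from 2.41 and 1.88 to 26.9 and 27.1 CPM and Hoxa2, whose role is in rhombomere identity, from 4.38 and 3.9 to 26.8 and 32.3 CPM. Hoxb1, with a mean of 51.7 CPM on day 1, ended lower, at 0.22 and 0.845 CPM from 4.11 and 3.17 CPM (log2 fold change -2.77 ± 0.56, edgeR adjusted p = 0.00283). Of 19 tested genes of groups 5 to 13, 5 were higher and 3 lower (median -0.36), and 8 further genes were below the filter on low counts. Hoxb8 rose to 11.1 and 13.6 CPM and Hoxc5 to 4.56 and 8.78 CPM, while Hoxa10 fell from 1.8 and 1.5 to 0.157 and 0.228 CPM. The posterior share called higher is near that of all tested genes, and the anterior and posterior lists were not compared by a test.

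Hox proteins bind DNA with Meis and Pbx partners, and 8 of 9 such cofactors were higher (median 2.41). Meis1 rose from 10 and 9.55 to 120 and 158 CPM and Pknox2 from 12.2 and 6.81 to 111 and 110 CPM. Pknox1 was called lower with 38 and 41.5 CPM on day 0 and 25.7 and 28.9 on day 3, a call that was lost without day 0 replicate 2, either library of day 2 or either library of day 3 (adjusted p from 0.0604 to 0.153). Among 15 hindbrain genes 11 were higher (median 2.97). Nr2f1 and Nr2f2, nuclear receptors of the caudal neural tube, rose from 0.714 and 1.11 to 78 and 113 CPM and from 1.36 and 1.93 to 77.6 and 92.1 CPM. Gbx2, which marks the border with the midbrain, fell from 51.9 and 42.1 to 2.39 and 3.22 CPM. The forebrain and midbrain factors summed to 33.9 and 29.6 CPM on day 0, most of it Otx2, and to 5.03 and 5.43 CPM on day 3. Of 17 listed, 8 did not pass the filter on low counts, and the highest day 3 level of any was 1.82 CPM. The counts of the others stand beside 27.6% of all tested genes called higher and 26.3% called lower. Of the 9 tested, 3 were lower and 2 higher (median -1.13), and the number higher was 0 or 1 without any single library.

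Hedgehog feedback targets rose in 7 of 8 cases (median 5.95). Ptch1, the receptor that Gli proteins induce, stood at 28.3 and 26.1 CPM on day 0 and 452 and 457 CPM on day 3 (log2 fold change 4.07 ± 0.20, edgeR adjusted p = 2.31e-06). Gli1 rose from 6.59 and 3.47 to 42.1 and 70.7 CPM and Hhip, a decoy receptor, from 0.34 and 0.642 to 23.4 and 30.9 CPM. Upstream, 8 of 10 receptors and mediators rose (median 1.53), among them Smo, the target of SAG, from 67.4 and 42.3 to 164 and 163 CPM, and the co-receptors Boc, Cdon and Gas1 (log2 fold changes 2.72, 1.15 and 2.25). The Gli motif GACCACCCA was found on either strand in 0.253% of promoter windows and in none of the 680 list genes with a window. Shh, Gli1 and Boc had no window and were not searched.

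Floor plate genes, which mark the ventral midline, had the highest median of the 57 lists, 6.33 with a gene at 0 on day 0 set to its bound, and 10 of 11 were higher. Shh, the hedgehog ligand itself, was at 0.102 and 0.171 CPM on day 0 and at 279 and 114 CPM on day 3 (log2 fold change 10.49 ± 0.73, edgeR adjusted p = 9.15e-06). Foxa2, which specifies the floor plate, rose from 1.6 and 2.01 to 179 and 108 CPM, Ntn1, the netrin that attracts commissural axons, from 25.9 and 23.6 to 1358 and 765 CPM, and Spon1 from 2.68 and 1.28 to 470 and 206 CPM. In each of these 4 genes replicate 1 was the higher day 3 library. Foxa3 fell from 1.6 and 1.03 to 0.126 and 0 CPM.

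Ventral progenitor factors were higher in 13 of 14 cases (median 5.29 with bounds). Nkx6-1, present across the ventral progenitor domains, rose from 0.272 and 0.214 to 133 and 138 CPM (log2 fold change 9.09 ± 0.29, edgeR adjusted p = 9.9e-07). Nkx2-2 and Nkx2-9, markers of visceral motor neuron progenitors, rose from 0.17 and 0.0428 to 11.7 and 12.1 CPM and from 0.442 and 0.0856 to 17.8 and 20.4 CPM. Olig2, the somatic motor neuron progenitor factor, had 1 and 1 counts on day 0 and 14.9 and 45.1 CPM on day 3, and Pax6, of more dorsal domains, rose from 5.61 and 5.74 to 12.3 and 65.9 CPM. For Olig2 and Pax6 replicate 2 was the higher library on day 3. Of 11 dorsal and intermediate factors 3 were higher and 1 lower (median 0.44), and the number higher was 1 without day 0 replicate 2. The share of these factors called higher is near the 27.6% of all tested genes. The 7 members not called stood at no more than 2.73 CPM in any day 3 library.

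**Figure D4:**
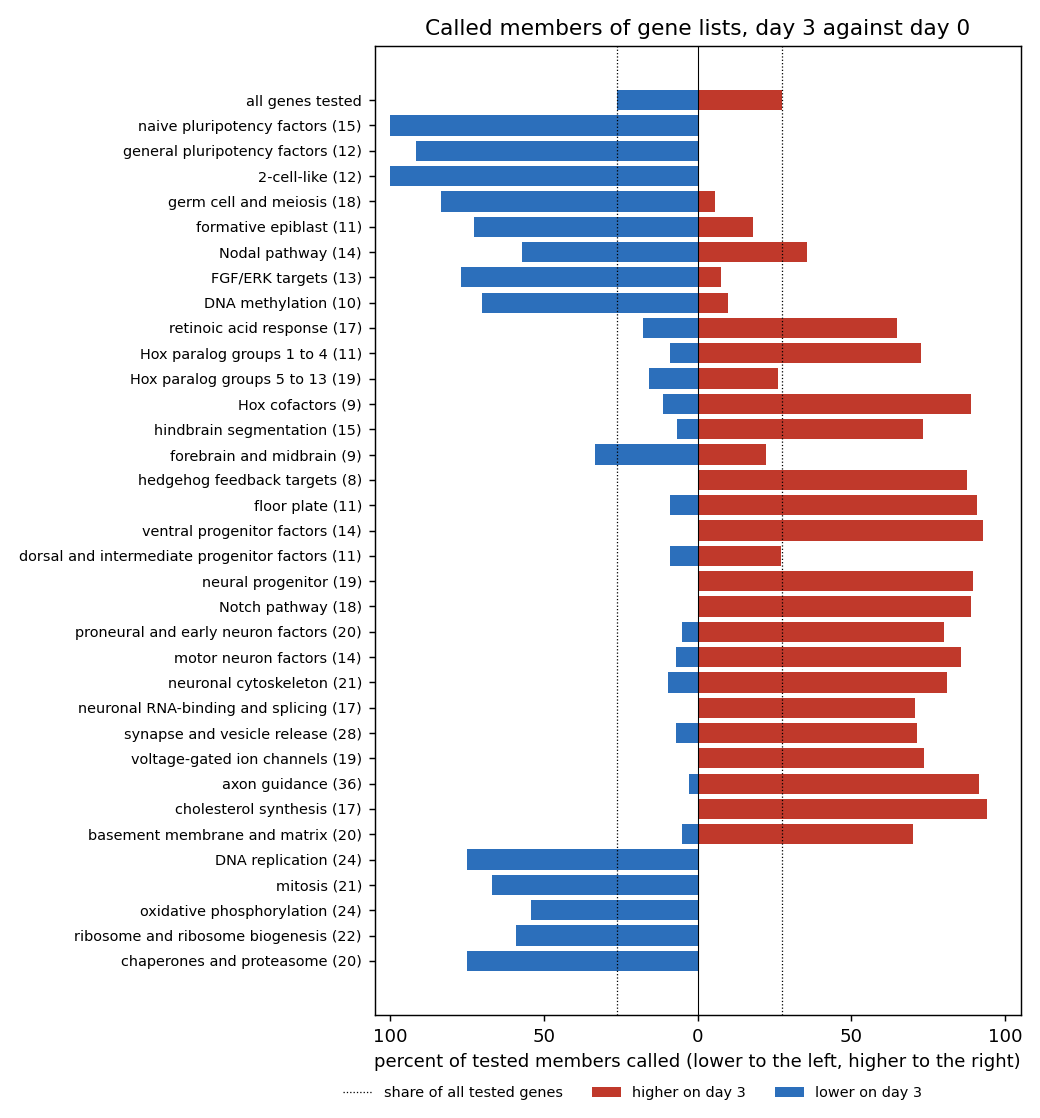
Percent of the tested members of 34 gene lists that were called higher (red, to the right) or lower (blue, to the left) on day 3, with the number tested in parentheses and the shares of all tested genes, 27.6% and 26.3%, as dotted lines. Pluripotency, germ cell and cell growth lists extend to the left, and hedgehog, ventral, progenitor and neuronal lists to the right.

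Neural progenitor genes were higher in 17 of 19 cases (median 3.18), Sox2 being 1 of the others. Sox1, Sox3 and Sox21 rose with log2 fold changes of 2.11, 3.18 and 5.18. Pou3f2, a POU factor of neural precursors, rose from 0.408 and 0.685 to 96.1 and 123 CPM (log2 fold change 7.67 ± 0.32, edgeR adjusted p = 1.36e-06). The intermediate filaments Nes and Vim rose from 222 and 154 to 619 and 554 CPM and from 284 and 325 to 1453 and 1070 CPM, and Prom1, which encodes Prominin-1, from 44.8 and 40.3 to 262 and 214 CPM. The cadherins moved in opposite directions. Cdh1, the epithelial cadherin, fell from 749 and 629 to 198 and 171 CPM while Cdh2, the neural cadherin, rose from 20.4 and 23.5 to 368 and 368 CPM. Epcam, Grhl2 and the splicing factor Esrp1, further epithelial genes, fell with log2 fold changes of -3.09, -3.41 and -2.39, but the keratin Krt18 rose from 84.7 and 85.9 to 291 and 169 CPM.

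Notch genes, through which neighbouring cells delay each other's differentiation, were higher in 16 of 18 cases and lower in none (median 2.79). Among ligands, Dll1 rose from 6.86 and 3.25 to 65 and 65.3 CPM and Dll3 from 1.56 and 0.428 to 14.3 and 12.2 CPM. The receptors Notch1 and Notch2 rose with log2 fold changes of 2.74 and 2.81. Of the effectors, Hey1 rose from 1.39 and 2.4 to 81.8 and 66.9 CPM (log2 fold change 5.31 ± 0.34, edgeR adjusted p = 6.75e-06) and Hes5 from 0.068 and 0.214 to 3.84 and 5.66 CPM.

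Proneural and early neuron factors were higher in 16 of 20 cases (median 5.69). Neurod4 had 1 and 1 counts in the day 0 libraries and 145 and 133 CPM on day 3. Myt1 and St18, zinc finger factors of new neurons, rose from 0.034 and 0.214 to 48.3 and 37.7 CPM and from 0.034 and 0.214 to 39.5 and 32.3 CPM, and Ebf3 from 0.782 and 0.642 to 50.4 and 53 CPM. Nhlh1 had 1 and 0 counts on day 0 and 29.7 and 25.8 CPM on day 3, and Nhlh2 0 and 2 counts and 38.3 and 44.6 CPM. Neurog2 was higher on day 3 (2.48 and 9.91 CPM against 0 and 0.171), and Neurog3 fell from 1.56 and 1.2 to 0.377 and 0.228 CPM. Neurod1 was not called, with 7.88 and 4.54 CPM on day 0 and 9.59 and 10.4 CPM on day 3.

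Motor neuron factors were higher in 12 of 14 cases (median 4.55 with bounds). Isl1, needed by all motor neurons, rose to a mean of 55.5 CPM from 0.102 and 0.514 CPM (log2 fold change 7.56 ± 0.50, edgeR adjusted p = 7.46e-06), Tbx20 from 1.33 and 2.27 to 65.3 and 38.1 CPM and Lhx4 from 0.204 and 0 to 24.2 and 31.9 CPM. Chat, which makes acetylcholine, was at 7.77 and 3.48 CPM on day 3 from 0.136 and 0.0428 CPM. Mnx1 and Tbx2 had 0 counts on day 0, and Mnx1 ended at 2.55 and 4.16 CPM and Tbx2 at 0.849 and 0.52 CPM. Tbx3 fell, as given with the naive factors.

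Serotonergic genes were higher in 6 of 9 cases (median 1.36), but these were mostly genes with wider use. Slc18a2, the vesicular monoamine transporter, rose from 0 and 0.257 to 26.7 and 10 CPM, Lmx1b from 0.952 and 0.128 to 32.9 and 20.2 CPM and Gata2 from 2.24 and 0.856 to 10.8 and 7.12 CPM. The defining genes did not: Tph2, the enzyme that starts serotonin synthesis, fell from 1.97 and 2.18 to 0.346 and 0.585 CPM, and Fev, which specifies these neurons, was listed at 0 CPM in both day 3 libraries and was below the filter. Of 9 tested genes of other transmitters 3 were higher and 2 lower (median 0.20), beside 27.6% and 26.3% of all tested genes. The summed level of the 16 listed was 22.8 and 16.65 CPM on day 0 and 8.017 and 10.17 CPM on day 3. Dbh rose to 1.48 and 2.02 CPM and Th to 1.48 and 1.76 CPM. Slc17a6, Gad2 and Slc32a1 were below the filter, with no day 3 library above 0.195 CPM.

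Genes of the neuronal cytoskeleton were higher in 17 of 21 cases (median 2.37). Dcx, a microtubule protein of migrating neurons, rose from 0.782 and 0.856 CPM to a mean of 143 CPM (log2 fold change 7.45 ± 0.29, edgeR adjusted p = 1.36e-06), Nefm from 8.05 and 7.11 to 261 and 168 CPM and Map2 from 11.8 and 13.4 to 206 and 130 CPM. Exceptions were Nefh and Stmn2. Nefh fell from 39.4 and 37.4 to 0.472 and 3.09 CPM. Stmn2, a microtubule regulator that usually marks neurons, was at 294 and 327 CPM in the stem cells and at 108 and 104 CPM on day 3 (log2 fold change -1.54 ± 0.17, edgeR adjusted p = 9.78e-05), after a minimum mean of 17.6 CPM on day 2. Both day 3 libraries stood above that minimum.

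Neuronal RNA-binding and splicing regulators rose in 12 of 17 cases and fell in none (median 2.09). Elavl4 rose from 3.5 and 4.54 to 196 and 181 CPM (log2 fold change 5.56 ± 0.23, edgeR adjusted p = 1.36e-06), Elavl3 from 4.66 and 5.01 to 97.6 and 78.8 CPM and Srrm4, which promotes microexon inclusion, from 1.09 and 0.899 to 54.2 and 50.1 CPM. Celf3 had 1 and 3 counts on day 0 and 27.7 and 24.4 CPM on day 3. Ptbp1, the repressor of neuronal exons, was not called (393 and 236 CPM on day 0, 365 and 383 on day 3), whereas its neuronal paralog Ptbp2 rose from 88.8 and 96.2 to 234 and 237 CPM.

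Synapse and vesicle genes were higher in 20 of 28 cases (median 2.05) and lower in 2. Ion channel genes were higher in 14 of 19 (median 1.57) and lower in none, with 1 called lower without day 0 replicate 1. Cplx2, a complexin, rose from 3.06 and 3.38 to 99.7 and 56.7 CPM, Snap25 from 0.578 and 1.07 to 14.3 and 13.1 CPM and Syp from 2.01 and 1.24 to 18.9 and 13.3 CPM. The nicotinic receptor subunit Chrna3 had 3 and 3 counts on day 0 and 49.4 and 36.6 CPM on day 3, and its partner Chrnb4 rose from 1.8 and 1.67 to 32.8 and 23.2 CPM. Calcium channel Cacna1g rose from 2.48 and 1.24 to 77.9 and 43.6 CPM, and potassium channel Kcnc1 was at 0 counts on day 0 and at 16.6 and 8.68 CPM on day 3. On the deposited FPKM values with a filter at 1 FPKM in 2 libraries, 10 of the synapse genes and 5 of the ion channel genes were called higher.

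Axon guidance genes were higher in 33 of 36 cases (median 3.46). Among ligands, Slit1 and Slit2, repellents of the midline, rose from 0.476 and 0.642 to 571 and 248 CPM and from 3.16 and 3.13 to 562 and 291 CPM. Among receptors, Robo2 rose from 2.34 and 2.74 to 45.6 and 75.7 CPM, Plxna2 from 6.15 and 7.58 to 281 and 261 CPM (log2 fold change 5.31 ± 0.19, edgeR adjusted p = 9.9e-07) and Nrp1 from 4.01 and 6.29 to 71.8 and 66.7 CPM. Clustered and delta protocadherins, adhesion molecules of neurites, were higher in 6 of 12 cases, and 1 was called lower without day 0 replicate 2. The immunoglobulin adhesion molecules Cntn2 and Nrcam rose with log2 fold changes of 4.26 and 4.96. Unc5b, a netrin receptor, fell from 53.9 and 29.2 to 13.7 and 9.95 CPM, while Unc5a, Unc5c and Unc5d rose.

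**Figure D5:**
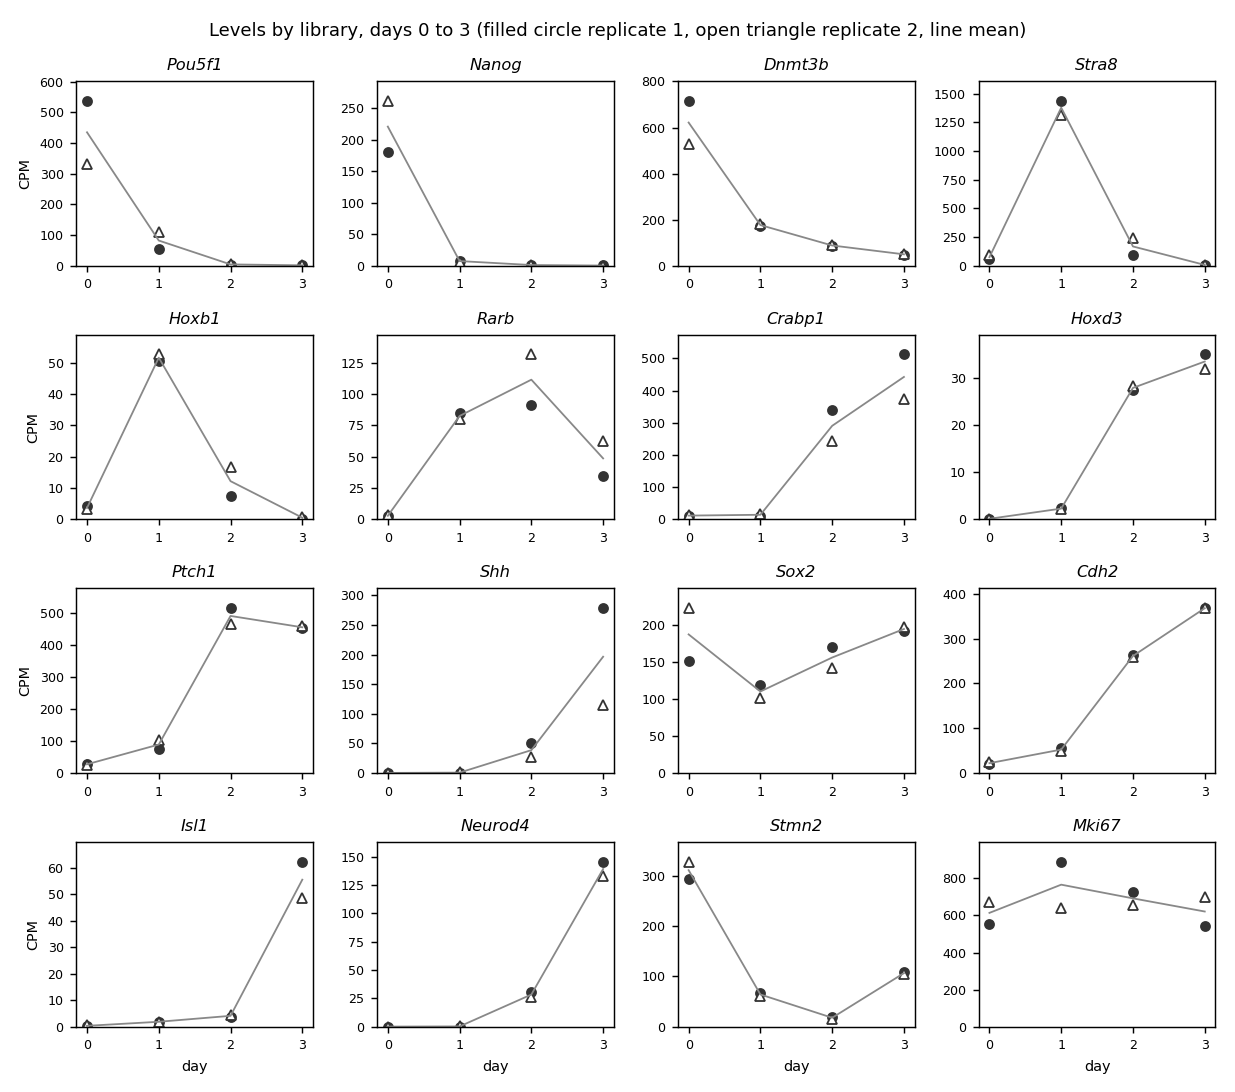
CPM (y axis) of 16 genes in each library of days 0 to 3 (x axis), with filled circles for replicate 1, open triangles for replicate 2 and a grey line through the means; each panel has its own scale starting at 0. Stra8 and Hoxb1 peak on day 1 and end below day 0, Stmn2 dips on day 2, Sox2 and Mki67 overlap between days 0 and 3, and Shh, Isl1 and Neurod4 climb to day 3.

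Some genes went from no detectable signal to clear expression. Counting at most 3 counts in each library of 1 day as the floor and at least 5 CPM in each library of the other as expressed, 43 genes were gained and 25 lost. Among the gained genes, 7 with 0 counts in both day 0 libraries were at least 270-fold (Ppp1r17), 246-fold (BC024139), 133-fold (Bmp3), 110-fold (Hpgds), 98.4-fold (Kcnc1), 71.1-fold (Tecrl) and 56.7-fold (Gnat3) higher on day 3 when day 0 is set to 3 counts per library, a bound that covers counting error only. Ppp1r17 reached 46.2 and 23.1 CPM and Bmp3, a divergent member of the BMP family, 20.9 and 13 CPM. Vit, a matrix protein, had 0 and 1 counts on day 0 and 94.2 and 56 CPM on day 3, and the cholecystokinin receptor Cckar 0 and 1 counts and 40.5 and 19.4 CPM. On the losing side Arhgef38 went from 11.6 and 19.8 CPM to 0 counts in both day 3 libraries, at least 161-fold lower, and the oocyte gene Khdc3 from 5.2 and 10.5 CPM to 0, at least 80.4-fold lower. Kcnj3, a potassium channel, had 54.6 and 34.9 CPM on day 0 and 1 and 2 counts on day 3, and Tcl1, a cofactor of the kinase Akt, 8.43 and 14.6 CPM and 3 and 0 counts. Tdgf1-ps1, a pseudogene copy of Tdgf1, fell with its parent (215 and 245 CPM on day 0, 0.22 and 0 on day 3), and reads of the 2 copies may have been split.

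By CPM gained, the leading genes were a desaturase, an imprinted regulator and a growth factor binding protein. CPM is not divided by gene length, so this order depends on transcript length as well. Scd2 rose from 698 and 716 to 3164 and 3856 CPM (log2 fold change 2.32 ± 0.19, edgeR adjusted p = 1.83e-05). Peg3 rose from 297 and 303 to 2715 and 2216 CPM and Igfbp5, which binds insulin-like growth factors, from 7.2 and 12.4 to 1507 and 1728 CPM (log2 fold change 7.38 ± 0.38, edgeR adjusted p = 2.62e-06). Myh10, a nonmuscle myosin, rose from 242 and 172 to 1447 and 1277 CPM. Peg3 belongs to the imprinted genes, of which 11 of 21 were higher and 4 lower (median 0.91). Igf2 and H19, neighbours in 1 imprinted cluster, rose from 57.1 and 64.3 to 439 and 301 CPM and from 155 and 147 to 936 and 590 CPM, Nnat from 34.4 and 27.4 to 427 and 305 CPM and Plagl1 from 12.8 and 13.4 to 115 and 153 CPM. Rian fell from 506 and 519 to 253 and 308 CPM and Impact from 623 and 746 to 306 and 399 CPM.

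Cholesterol synthesis rose nearly as a whole, with 16 of 17 genes higher, none lower and a median of 1.16. Hmgcs1, which feeds the mevalonate pathway, rose from 536 and 584 to 2103 and 1962 CPM (log2 fold change 1.87 ± 0.19, edgeR adjusted p = 6.49e-05), and Lss, which closes the sterol rings, from 121 and 87.1 to 406 and 333 CPM. The regulator Srebf2 rose with a log2 fold change of 1.65. Idi1 was not called (6.49 and 8.69 CPM on day 0, 11.4 and 13.5 on day 3). These changes were of modest size, and 6 of the 16 passed the test against a minimum log2 fold change of 1.

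Energy metabolism fell in part. Glycolysis and hypoxia genes were lower in 9 of 23 cases and higher in 3 (median -0.53), beside 26.3% and 27.6% of all tested genes. Slc2a3, a glucose transporter, fell from 1407 and 1459 to 232 and 192 CPM (log2 fold change -2.75 ± 0.17, edgeR adjusted p = 5.08e-06), Ldha from 861 and 589 to 149 and 157 CPM, Pdk1 from 235 and 327 to 33.5 and 35.4 CPM and Hk2 from 319 and 273 to 73.7 and 87.5 CPM. Vegfa rose from 23.3 and 17.1 to 90.5 and 73.6 CPM. Of 24 oxidative phosphorylation genes 13 were lower and none higher (median -0.62), and none passed the minimum log2 fold change of 1. A list of 15 housekeeping genes had a median of similar size, -0.44, with 7 lower and 2 higher, and without day 3 replicate 1 these counts were 4 and 0. The number higher was 1 without either library of day 0, either of day 2 or day 3 replicate 2. Hprt, a purine salvage enzyme, fell from 240 and 331 to 41.9 and 59.1 CPM, while Actb was not called (1945 and 1614 CPM on day 0, 1307 and 1306 on day 3). With a GC offset Actb was called lower (log2 fold change -0.42, edgeR adjusted p = 0.0256). The lists of energy metabolism and of housekeeping genes were not compared by a test. Among the oxidative phosphorylation genes that were called, Ndufs1 showed the lowest day 3 level relative to day 0, 347 and 460 to 137 and 180 CPM. Amino acid and one-carbon genes were lower in 11 of 18 cases (median -1.09). Tdh is among them, and the arginine transporter Slc7a3 fell from 280 and 355 to 5.22 and 9.33 CPM, Shmt1 from 231 and 222 to 42.2 and 64.8 CPM and Gldc from 367 and 330 to 97.5 and 137 CPM.

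Genes for making ribosomes were mostly lower. Of 22 ribosome and ribosome biogenesis genes, 13 were lower and none higher (median -1.12), although 1 was called higher without day 0 replicate 1. Ncl, nucleolin, fell from 4518 and 5490 to 1216 and 1820 CPM (log2 fold change -1.72 ± 0.26, edgeR adjusted p = 0.000571). Ncl had the largest loss in CPM of any called gene, a rank that also depends on transcript length. Polr1b, a subunit of RNA polymerase I, fell from 261 and 250 to 60.9 and 81.1 CPM, and Wdr43 from 432 and 531 to 137 and 191 CPM. Several members are hard to count, since genes with many processed pseudogenes can lose or share reads. Rps6, for example, stood at a mean of 1.82 CPM on day 0 in the count table but at 474 FPKM in the deposited FPKM table, whereas Ncl was at 5004 CPM and 407 FPKM, so a missing call for such a ribosomal protein gene says little. Chaperone and proteasome genes were lower in 15 of 20 cases (median -0.88), among them Hsp90aa1 from 937 and 1219 to 220 and 330 CPM and the mitochondrial Hspa9 from 1323 and 1722 to 386 and 534 CPM.

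DNA replication genes were lower in 18 of 24 cases and mitosis genes in 14 of 21 (medians -0.83 and -0.66), with none higher, but without day 3 replicate 1 these counts were 10 and 6, and 1 mitosis gene was called higher without day 0 replicate 1 or without either library of day 1, and 2 with a GC offset. Orc1, a subunit of the origin recognition complex, fell from 129 and 177 to 28.9 and 43.1 CPM (log2 fold change -2.08 ± 0.24, edgeR adjusted p = 0.000121) and Prim1, a primase subunit, from 157 and 211 to 62.3 and 84.5 CPM. Ccnb1 fell from 155 and 230 to 76.6 and 101 CPM. Mki67, present in all cycling cells, was at 553 and 675 CPM on day 0 and 546 and 697 CPM on day 3 and was not called (log2 fold change 0.02 ± 0.21, 95% interval -0.45 to 0.50). Among G1 regulators 12 of 22 were higher and 3 lower. Ccne1, cyclin E1, which is high throughout the stem cell cycle, fell from 453 and 487 to 69 and 108 CPM (log2 fold change -2.40 ± 0.21, edgeR adjusted p = 3e-05), while cyclin D2, Ccnd2, rose from 63.5 and 53.6 to 530 and 766 CPM. CDK inhibitors Cdkn1b, Cdkn1c and Cdkn2c rose with log2 fold changes of 1.57, 1.35 and 2.29. Trp53 fell from 308 and 264 to 86.7 and 119 CPM, and Myc from 69.2 and 45.9 to 15.1 and 20.6 CPM. Of 16 p53 targets 4 were higher and 4 lower, near the 27.6% and 26.3% of all tested genes. The number higher was smaller without day 0 replicate 2 or either library of day 3.

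Among subunits of chromatin complexes 11 of 29 were higher and 7 lower, beside 27.6% and 26.3% of all tested genes. The share lower is near that of all tested genes. In the BAF remodeling complex, Smarcc1, the subunit of the stem cell form, fell from 678 and 820 to 427 and 558 CPM, a call lost without day 0 replicate 2, day 2 replicate 2 or day 3 replicate 1 (adjusted p = 0.146, 0.0546 and 0.173). Actl6a fell with a log2 fold change of -0.88, while Smarcc2 rose from 34.4 and 31.3 to 135 and 137 CPM, Smarca2 from 9.11 and 6.21 to 33.2 and 32.8 CPM, and the neuronal subunit Actl6b went from 0 counts to 1.32 and 1.63 CPM. In Polycomb repressive complex 2, Jarid2 fell from 528 and 654 to 108 and 118 CPM (log2 fold change -2.38 ± 0.17, edgeR adjusted p = 9.65e-06), Mtf2 from 475 and 751 to 177 and 210 CPM, Eed from 248 and 365 to 65.1 and 101 CPM and Suz12 from 375 and 555 to 172 and 194 CPM, whereas the catalytic Ezh2 was not called (337 and 489 CPM on day 0, 252 and 340 on day 3). In Polycomb repressive complex 1, Bmi1, Cbx2 and Cbx8 rose with log2 fold changes of 1.90, 1.45 and 3.35, and Cbx7, the main stem cell form, was not called (173 and 154 CPM on day 0, 160 and 183 on day 3).

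Matrix genes rose in 14 of 20 cases (median 1.60), and with them genes that are shared with extraembryonic endoderm, a lineage that lays down basement membrane. Col4a1 was at 293 and 143 CPM on day 0 and at 2106 and 1051 CPM on day 3 (log2 fold change 2.86 ± 0.44, edgeR adjusted p = 0.000663), and Lama1 rose from 440 and 298 to 1632 and 948 CPM. The transcription factors of that lineage were present on both days and were not called: Gata4 at 30.5 and 22.5 CPM on day 0 and 40.2 and 25.5 on day 3, Gata6 at 18.9 and 17.4 on day 0 and 20 and 15.9 on day 3, and Sox17 at 3.98 and 3.17 on day 0 and 8.68 and 5.4 on day 3. Cubn, the uptake receptor of visceral endoderm, fell from 168 and 182 to 96 and 98.3 CPM. Over the whole list of 26 tested genes, 11 were higher and 4 lower, and the summed level was 3522 and 2703 CPM on day 0 and 9837 and 5855 CPM on day 3, with the secreted Apoa1 at or near 0. In the libraries sorted for Prominin-1, Gata4 was at 0.538, 1.75 and 0.662 CPM and Col4a1 at 252, 384 and 496 CPM. These libraries were smaller, with 17113430, 15486744 and 13173674 total counts. Their column names also carry a different code from those of days 0 to 3, whose meaning is not stated. Sorting cannot be told apart from these differences. The part of extraembryonic endoderm cells in the matrix result was not tested. Levels of Col18a1 and Vcan in the sorted libraries, which are of day 3.5 by their titles, are given as well. The source of the day 3 RNA of these 2 genes was not tested. Col18a1 rose from 257 and 108 to 1010 and 659 CPM and was at 386, 567 and 862 CPM there, and Vcan rose from 57.7 and 62.4 to 378 and 459 CPM and was at 496, 471 and 405 CPM.

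Markers of other lineages gave a mixed picture. Their counts stand beside 27.6% of all tested genes called higher and 26.3% called lower. The mesoderm factors Eomes and Tcf15 fell from 9.07 and 8.09 to 0.346 and 0.488 CPM and from 15.6 and 8.22 to 0.283 and 0.293 CPM, and Mesp1 and Tbx6 were below the filter. Of 15 tested mesoderm and endoderm genes 4 were higher and 5 lower, the latter being 3 without day 0 replicate 1 or day 3 replicate 1, and their summed level was 103 and 83.5 CPM on day 0 and 242.6 and 181.7 CPM on day 3. The chemokine receptor Cxcr4, which neural cells also use, made up 157 and 109 CPM of the latter. Of 14 neural crest and glia genes 5 were higher and 2 lower, the former being 3 without either library of day 3. The crest factor Sox10 was listed at 0 on day 3 and Foxd3 fell from 7.51 and 3.85 to 0 and 0.0975 CPM. For blood and endothelium, Ptprc was below the filter, and Pecam1, which stem cells also express, fell from 37 and 52.3 to 0.88 and 0.618 CPM. Muscle Myod1 was at 0 counts on day 3. Of 15 fibroblast and muscle genes 8 were higher and 4 lower, the latter being 2 without day 0 replicate 2 or any library of days 2 and 3. Des fell from 16.1 and 10.4 to 3.71 and 2.37 CPM, while the contractile genes Acta2 and Tagln rose from 55.8 and 66.7 to 308 and 241 CPM and from 135 and 95.8 to 489 and 349 CPM. Of 11 trophoblast and surface ectoderm genes 4 were higher and 1 lower (median 0.85), the latter being 3 without either library of day 1, 2 without day 2 replicate 2 and 0 without day 3 replicate 2. Their summed level was 41.3 and 41.0 CPM on day 0 and 92.1 and 55.1 CPM on day 3. The keratin Krt7 made up 54.1 and 27.7 CPM of the latter, and Trp63, a factor of surface ectoderm, rose from 0.102 and 0.128 to 4.87 and 2.41 CPM. The trophoblast factors Cdx2 and Elf5 were not called, with 1.07 and 1.14 CPM of Cdx2 and 0.44 and 0.423 CPM of Elf5 on day 3.

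The genes that rose and fell differed in build. The annotation matched 92.75% of the tested genes. The median span on the chromosome was 31.89 kb for genes called higher, 19.41 kb for those called lower and 21.0 kb for all tested, and the median transcript lengths were 3941, 2842 and 3151 bases. Processed pseudogenes, intronless copies of mRNAs, numbered 1082 among the tested genes, of which 46 (4.251%) were higher and 302 (27.91%) lower, whereas 29.92% of 13815 protein-coding genes were higher and 26.51% lower. Reads of a pseudogene and its parent can be confused. Of 136 long intergenic noncoding RNAs 48 (35.29%) were higher and 41 (30.15%) lower. None of the 78 small nucleolar RNA genes was higher while 12 (15.38%) were lower. Of all tested genes 27.6% were higher and 26.3% lower, so the share of small nucleolar RNA genes called lower is below that of all tested genes. These are descriptions without a test, and GC content differed as well, with a median of 51.48% for genes called higher and 47.72% for those called lower.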

How the data were processed

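RNA was measured by polyA RNA-seq in 11 libraries of 1 series, and the groups were taken from the titles and cell status labels. The authors deposited a table of expected counts per gene, in which 104 of 38197 genes have fractional values and which was rounded to whole counts here. They also deposited log2 values, which equal log2 of library-scaled counts (CPM) with an offset of 0.5, and an FPKM table (fragments scaled by gene length and library total). The submitters' processing notes name TopHat2 2.0.4, HTSeq 0.6.1, Cufflinks 2.1.1, limma and the build GRCm38, without roles. The strand setting of the counting is not given in the sources at hand.

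Day 3 was tested against day 0 with edgeR 4.0.16 in R 4.3.3 (quasi-likelihood test, TMM scaling, filterByExpr with a minimum count of 10) on the 8 libraries of days 0 to 3, whose 4 groups share the estimate of spread. The SE is the absolute log2 fold change divided by the root of F. The script was tested on simulated counts. The members and gene lists were chosen with earlier results of these data known, so counts over a list are descriptions. Genes were named by size of change (12 per direction), by CPM gained or lost (8 per direction), by a fixed panel, as up to 4 called members per list and direction with the smallest p, and as members that went against their list or were not called. A further 49 called list members were chosen after their values were seen. Alternatives were DESeq2 1.42.0, other scalings and filters, a GC offset, limma 3.58.1 on the deposited FPKM and log2 values, and leaving out each library. Some genes that these rules would name are not reported here.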

Additional observations from a re-analysis of the deposited data

How the results depend on the processing

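The number of genes higher was 4596 with RLE size factors, 4630 with DESeq2, 4466 from the 4 libraries of days 0 and 3 alone and 5484 with a GC offset, and the number lower was 4484, 4410, 3897 and 4878. Against a minimum absolute log2 fold change of 1 they were 2425 and 1673, since that test asks for more. Leaving out 1 library at a time gave 3465 to 5020 genes higher and 2964 to 4649 lower, with the lowest of both without day 3 replicate 1. With the replicate number as a block 4294 were higher and 4013 lower, and the block is not a pairing by design: there are 2 numbers, no label ties them to a shared batch, and the deviations of same-numbered libraries correlated at 0.179 between days 0 and 3 but at -0.449 between days 0 and 1. The block ended the calls of Pknox1 and Smarcc1 (edgeR adjusted p = 0.0511 and 0.0515) and of no other named gene. The deposited log2 values, which carry no TMM scaling, moved the median of all genes to 0.18 from 0.02 and gave 57.6% of calls higher against 51.2%. Over 255 named genes and 20 alternatives, 4951 of 5072 values kept direction and side of the threshold, 50 lost the call (the test against a minimum included), 52 gained one and 19 changed sign, all of the latter in genes that were not called: leaving out 1 library gave -0.19 to 0.37 for Sox2, -0.16 to 0.19 for Mki67, -1.35 to 0.53 for Fgf15, -0.07 to 0.67 for Ptbp1, -0.05 to 0.61 for Gata4, -0.18 to 0.15 for Gata6 and -0.02 to 0.17 for Cbx7. The FPKM settings gave 0.02 for Dnmt1 and 0.17 to 0.21 for Gata6, the deposited log2 values 0.13 for Gata6, and the GC offset -0.13 for Gata4 and -0.26 for Cbx7; the cause was not tested. Many of the 255 named genes were picked by the size or p-value of their change in these same data. Refits of the same libraries would keep most of their calls, so the 4951 values do not describe genes at large. On FPKM with a filter, 7 mitosis genes were lower in place of 14. With 2 libraries a day, precision rests on the spread shared over the 4 days, and genes below the filter on low counts were not tested.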
